A study of Mus musculus with 26 samples.

Results

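Complement and acute phase genes encode secreted proteins of innate immunity that liver, glia and immune cells make. In the complement cascade, C4 and C3 are cleaved in turn and their fragments mark surfaces for uptake, and the C1 inhibitor encoded by Serping1 restrains the first step. Acute phase genes such as Serpina3n, a serine protease inhibitor, Lcn2, an iron-siderophore binding lipocalin, and Chil1, a chitinase-like protein without enzyme activity, are known to change their expression in glia during inflammation and injury, and interleukin-6 family cytokines acting through Stat3 and interferon gamma are established inducers of parts of this programme.

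The 6 genes described are C4b, C3, Serping1, Serpina3n, Chil1 and Lcn2, found by their Entrez identifiers among 24454 genes in a table of read counts. All 6 passed the filter on low counts, as did 15617 genes in all. Serpina3n, C4b and Chil1 were picked because they differed between genotypes in these data, so their differences between genotypes are given as a description with no test. C3, Serping1 and Lcn2 were tested.

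The 26 libraries came from GFP-positive cells sorted out of dissected early mouse brain tumours of the PDGF+Trp53-/- glioma model, in which a Cre-dependent GFP reporter at the Rosa locus marks the cells. Every library, controls included, is labelled knockout for Trp53. Beyond that, 4 libraries are labelled Rbpj-/-, 5 Notch1-/-Notch2-/-, 6 Notch1-/- and 5 Notch2-/-, and the 6 control libraries are wild type for Notch1, Notch2 and Rbpj. Rbpj encodes the DNA-binding protein through which Notch receptors act on transcription, and the design asks what loss of each receptor, of both, or of Rbpj does to expression in these tumours. The labels do not name the promoter driving Cre, the age or sex of the mice, or whether replicates are separate animals, so p-values measure the spread between these libraries.

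Library totals ran between 30868828 and 48103535 counts. Glioma and oligodendrocyte precursor markers such as Pdgfra and Olig1 summed to between 3397 and 10342 CPM (counts scaled to a common library total) and were present in every library. Rbpj fell to 37.8 ± 13.5 CPM in Rbpj-/- libraries, against 61.2 ± 6.43 CPM in control libraries (SD, n = 4 and 6, edgeR quasi-likelihood test with Benjamini-Hochberg adjustment, adjusted p = 0.0222). Notch2 fell to 7.35 ± 0.95 CPM in Notch2-/- libraries, against 12.7 ± 2.73 CPM in control libraries (n = 5 and 6, edgeR, adjusted p = 0.0200), but stood at 11.2 ± 1.32 CPM in Notch1-/-Notch2-/- libraries (n = 5, edgeR, adjusted p = 0.377). Notch1 was not lower in Notch1-/- libraries (log2 fold change 0.40 ± 0.24 SE) or in Notch1-/-Notch2-/- libraries (0.36 ± 0.25). The counts cover whole genes and the deleted part is not named in the labels, so a transcript that has lost only some exons is still counted, and genotypes are used as labelled. Exons were not examined. These counts thus do not show the loss of Notch1 in either genotype, or of Notch2 in Notch1-/-Notch2-/- libraries. Control replicate 6 and Notch2-/- replicates 3 and 4 held both Xist and Ddx3y above 10 CPM, markers of female and male cells.

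Per kilobase of gene length, the median over all 26 libraries was 69.7 CPM per kilobase for C4b, 41.8 for Serpina3n, 6.97 for Serping1, 3.06 for Chil1, 0.245 for C3 and 0.0869 for Lcn2. The share of the variance of log2 CPM lying between genotypes was 70.8% for Chil1, 58.1% for Serpina3n, 41.6% for C4b, 37.9% for C3, 17.5% for Serping1 and 15.3% for Lcn2. The 3 highest shares belong to the 3 genes picked for their differences, so this order restates that choice. Most of the variance of C3, Serping1 and Lcn2 lay among libraries of 1 genotype.

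**Figure D1:**
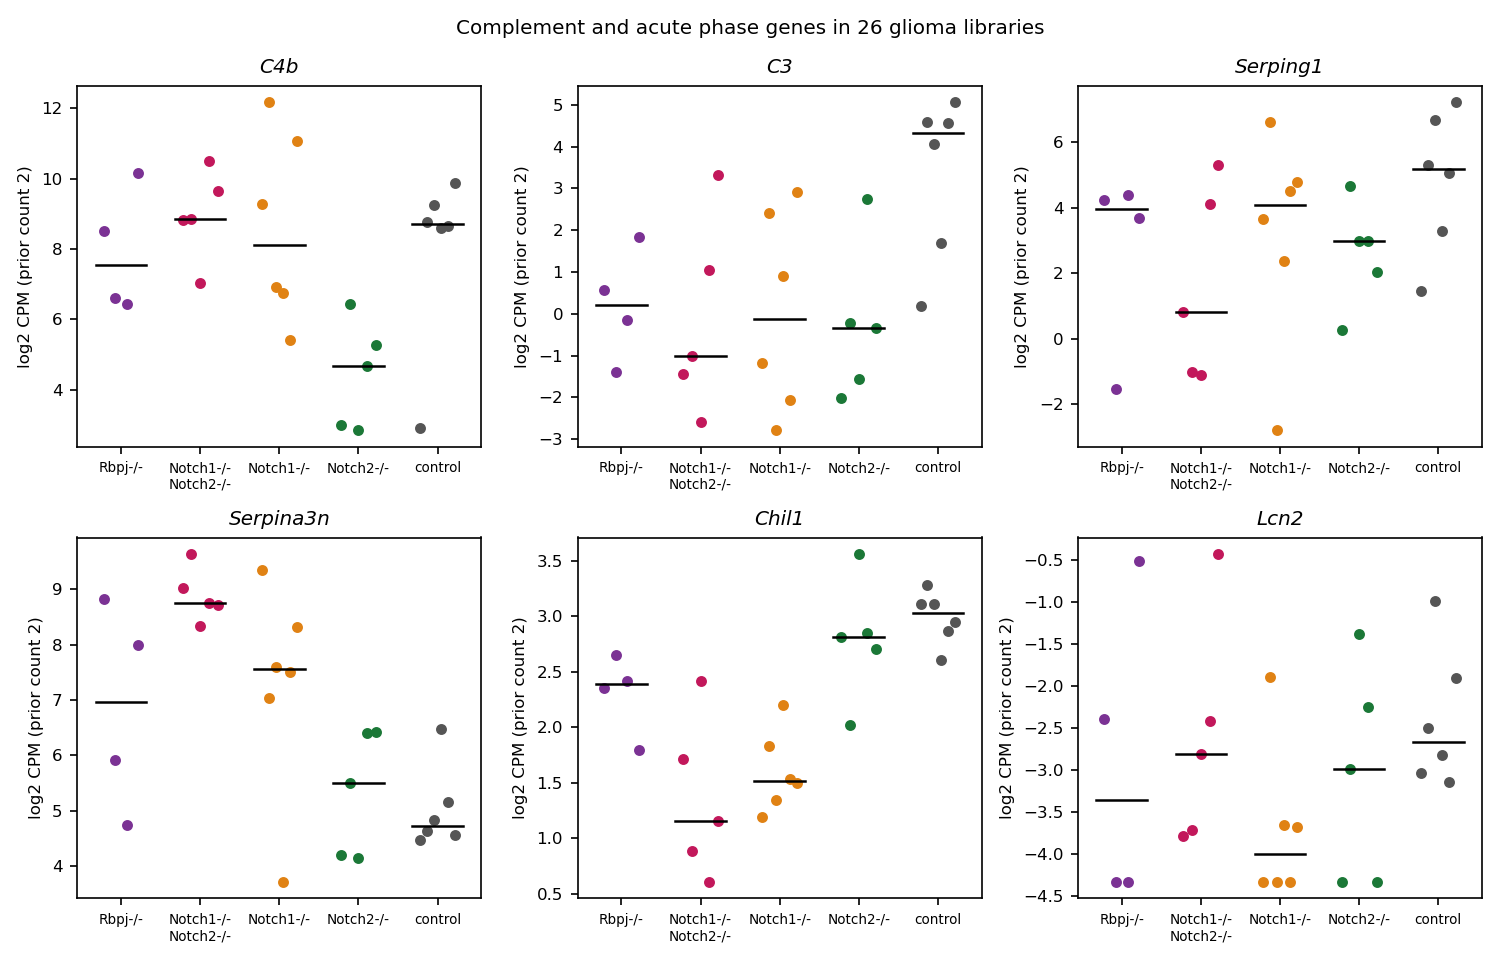
Level of each gene in every library, in log2 CPM with a prior count of 2, by genotype, with a bar at each group's median. The median of Serpina3n is highest in Notch1-/-Notch2-/- libraries, Chil1 lies below every control library in all Notch1-/-Notch2-/- and Notch1-/- libraries, and C3 lies below the control median in every mutant library.

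The sequence just before the start of 3 members is shown because these members have the most distinct patterns across the Notch genotypes: Serpina3n with its high values, C3 with its low values in all mutants, and Chil1 with its opposite course to Serpina3n. Each run is the 250 bases before the gene start in RefSeq's promoter sequences on assembly GRCm38.p6, written along the gene's own strand, 5′ to 3′. For Serpina3n that start lies inside the listed gene span. The windows are chr12:104406458-104406707 on the plus strand, chr17:57228137-57228386 on the minus strand and chr1:134181906-134182155 on the plus strand. Capitals mark matches to the searched motifs.
Serpina3n: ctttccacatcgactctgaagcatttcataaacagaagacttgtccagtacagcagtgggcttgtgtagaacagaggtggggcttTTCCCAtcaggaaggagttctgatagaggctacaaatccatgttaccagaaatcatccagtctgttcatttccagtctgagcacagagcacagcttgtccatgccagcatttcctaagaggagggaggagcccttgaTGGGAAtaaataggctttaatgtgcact
C3: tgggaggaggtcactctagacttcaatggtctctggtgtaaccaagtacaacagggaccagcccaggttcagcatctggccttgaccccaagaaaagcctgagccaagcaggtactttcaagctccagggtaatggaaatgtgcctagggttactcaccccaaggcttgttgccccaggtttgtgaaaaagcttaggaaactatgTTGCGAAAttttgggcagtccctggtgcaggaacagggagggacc
Chil1: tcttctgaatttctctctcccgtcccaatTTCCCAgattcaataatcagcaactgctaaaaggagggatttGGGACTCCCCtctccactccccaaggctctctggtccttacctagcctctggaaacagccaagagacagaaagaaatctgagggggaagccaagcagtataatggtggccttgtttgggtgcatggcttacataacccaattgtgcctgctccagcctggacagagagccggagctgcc

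The 5 motifs searched on both strands of these windows were the Rbpj motif TGGGAA, the STAT motif TTCNNNGAA, the C/EBP motif TTGCNNAA, the interferon-stimulated response element (GAAA, any 2 bases, GAAA) and the NF-kB motif. The Serpina3n window held 2 matches to the Rbpj motif, whose first bases lie at -165 and -28 relative to the start, and the Chil1 window held 1 at -221 and an NF-kB match at -179. A C/EBP match lay at -45 in the C3 window, and at -216 in the window of Lcn2, whose sequence is not shown. Of 32851 windows of the same length, 21.6% held the Rbpj motif, 9.56% the C/EBP motif, 7.25% the NF-kB motif, 7.02% the STAT motif and 2.98% the interferon-stimulated response element. No match overlapped another, and a match describes letters and not binding. Serpina3n and Chil1, which carry the Rbpj letters, differed from control in opposite directions. Both were picked for their differences, and a relation of the motif to these differences was not tested. C4b and Serping1 had no entry in the promoter table.

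C4b (Entrez 12268, chr17:34728139-34743902, GRCm38.p6) encodes complement component C4, which after cleavage forms part of the enzyme that cuts C3. It was the member with the highest values and spanned 7.10 to 4609 CPM. The Rbpj-/- libraries had 363, 96.6, 86.4 and 1155 CPM. In Notch1-/-Notch2-/- libraries it stood at 452, 464, 130, 1448 and 805 CPM. Notch1-/- libraries had a lowest value of 42.5, a median of 371 and a highest value of 4609 CPM. The Notch2-/- values were 7.89, 85.9, 7.10, 25.2 and 38.7 CPM, against a lowest of 7.38, a median of 417 and a highest of 948 CPM in control libraries.

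All 5 Notch2-/- libraries thus lay below the control median, yet the groups overlapped, because control replicate 1 had the second lowest value of all 26 libraries. The fitted log2 fold change over control was -3.82 ± 1.17 in Notch2-/-, 1.46 ± 0.99 in Notch1-/-, 0.51 ± 1.01 in Notch1-/-Notch2-/- and -0.13 ± 1.08 in Rbpj-/- (SE). Without Notch1-/- replicate 2, the library with 4609 CPM, the Notch1-/- value was 0.40, and with 1 library left out the Rbpj-/- value ran between -1.35 and 0.21 and that of Notch1-/-Notch2-/- was as low as -0.0039, without its replicate 4. Between the 2 single receptor losses, Notch1-/- over Notch2-/- was 5.27 ± 1.26 on the log2 scale, and all 6 Notch1-/- libraries exceeded the Notch2-/- median. Leaving out the 3 libraries with both Xist and Ddx3y, Notch2-/- libraries averaged 44.2 ± 39.3 CPM, against 367 ± 220 CPM in control libraries (SD, n = 3 and 5).

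C4a, a near-identical copy of C4b, had counts between 18.0% and 26.5% of those of C4b in all 26 libraries, with a median of 20.5%. In Rbpj-/- libraries the share was 23.6% to 26.5%, against 18.1% to 20.6% in control libraries, and these ranges did not overlap. The sources used here do not say how reads matching both copies were counted, so part of either count may belong to the other. In Notch1-/- over Notch2-/- libraries the log2 fold change of C4a was 5.22 ± 1.24, beside 5.27 for C4b, and is given with no test because it follows the gene picked for its change. In that contrast 0.839% of genes tested were called higher and 2.25% lower.

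C3 (Entrez 12266, chr17:57203967-57228136) encodes the component on which all complement routes converge. Its 4 values in Rbpj-/- libraries were 1.43, 0.329, 0.849 and 3.50 CPM. Notch1-/-Notch2-/- libraries had 0.318, 0.450, 0.117, 2.02 and 10.0 CPM. The Notch1-/- libraries had a lowest value of 0.0949, a median of 1.11 and a highest value of 7.44 CPM. Notch2-/- libraries had 0.197, 0.810, 0.289, 6.67 and 0.745 CPM, against a lowest of 1.09, a median of 20.2 and a highest of 33.3 CPM in control libraries.

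No mutant library of any genotype reached the control median, although control replicates 1 and 4, at 1.09 and 3.18 CPM, overlapped with the mutants. Over the 5 genotypes C3 differed (edgeR quasi-likelihood F-test, F = 4.08, adjusted p = 0.0419), as did 29.3% of the genes tested. That call was lost in 15 of 26 fits that left out 1 library, with the highest adjusted p, 0.119, without control replicate 6, and it was also lost without the 3 libraries with both Xist and Ddx3y (adjusted p = 0.0665). Against control the log2 fold change was -3.46 ± 1.36 in Rbpj-/- (adjusted p = 0.0828), -2.72 ± 1.19 in Notch1-/-Notch2-/- (adjusted p = 0.0749), -2.74 ± 1.11 in Notch1-/- (adjusted p = 0.0675) and -3.29 ± 1.23 in Notch2-/- (adjusted p = 0.244), so no single comparison passed in edgeR. With DESeq2's Wald test the first 3 of these passed, with adjusted p of 0.0215 for Rbpj-/-, 0.0372 for Notch1-/-Notch2-/- and 0.0327 for Notch1-/-. In edgeR C3 also passed in Notch1-/-Notch2-/- without Notch1-/-Notch2-/- replicate 5 (log2 fold change -4.55, adjusted p = 0.0129) and in Notch1-/- without Notch1-/- replicate 6 or control replicate 4 (adjusted p = 0.0498 and 0.0484).

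Of the 3 tested members, none passed in any of these 4 edgeR comparisons. Among all genes tested, 7.97% were called higher and 7.25% lower in Rbpj-/-, 18.3% higher and 18.8% lower in Notch1-/-Notch2-/-, 13.2% higher and 13.5% lower in Notch1-/-, and 0.128% higher and 0.166% lower in Notch2-/-. At an unadjusted threshold of 0.05 C3 passed in all 4 comparisons (edgeR p between 0.0130 and 0.0317), and Serping1 and Lcn2 in none. The shares above are of adjusted calls. The share of all genes passing at the unadjusted threshold is not given, so these passes cannot be set against it. The C3 gene also spans the microRNA gene Mir6978, with which its reads cannot be told apart.

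Serping1 (Entrez 12258, chr2:84765360-84775444), the C1 inhibitor, ranged over 0.0949 to 149 CPM. The Rbpj-/- libraries had 18.7, 0.296, 20.8 and 12.9 CPM. Notch1-/-Notch2-/- libraries had 1.73, 0.450, 0.420, 17.5 and 39.9 CPM. Notch1-/- libraries had a lowest value of 0.0949, a median of 17.8 and a highest value of 97.8 CPM. The Notch2-/- values were 1.16, 25.3, 7.85, 7.95 and 4.10 CPM, against a lowest of 2.68, a median of 36.4 and a highest of 149 CPM in control libraries.

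Libraries of every mutant genotype overlapped with control libraries for Serping1, and 2 of 20 mutant libraries lay above the control median. The log2 fold change over control was -2.08 ± 1.34 in Rbpj-/-, -2.22 ± 1.24 in Notch1-/-Notch2-/-, -1.02 ± 1.12 in Notch1-/- and -2.59 ± 1.26 in Notch2-/- (edgeR, adjusted p between 0.161 and 0.507). The F-test over the 5 genotypes gave an adjusted p of 0.272. The unadjusted p of the Notch2-/- difference was 0.0508 in edgeR.

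Serpina3n (Entrez 20716, chr12:104406646-104414334) had the largest positive differences from control among the members, and encodes an extracellular inhibitor of serine proteases. Rbpj-/- libraries had 452, 60.1, 26.7 and 256 CPM. The 5 Notch1-/-Notch2-/- libraries had 518, 797, 324, 431 and 422 CPM. Notch1-/- libraries had a lowest value of 13.0, a median of 188 and a highest value of 650 CPM. Notch2-/- libraries had 18.3, 45.0, 17.6, 84.7 and 85.1 CPM, against a lowest of 22.0, a median of 26.5 and a highest of 89.0 CPM in control libraries.

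Every Notch1-/-Notch2-/- library exceeded every control library, as did 5 of 6 Notch1-/- libraries and 2 of 4 Rbpj-/- libraries, whereas no Notch2-/- library did. Notch1-/- replicate 4 had the lowest value of all 26 libraries, below every control. The log2 fold change over control was 3.74 ± 0.73 in Notch1-/-Notch2-/-, 2.74 ± 0.69 in Notch1-/-, 2.42 ± 0.72 in Rbpj-/- and 0.43 ± 0.67 in Notch2-/-. The order of the medians was Notch1-/-Notch2-/- (431 CPM), Notch1-/- (188), Rbpj-/- (158), Notch2-/- (45.0) and control (26.5). Between neighbours in this order the ranges overlapped. Rbpj-/- over Notch1-/-Notch2-/- was -1.33 ± 0.77 on the log2 scale.

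**Figure D2:**
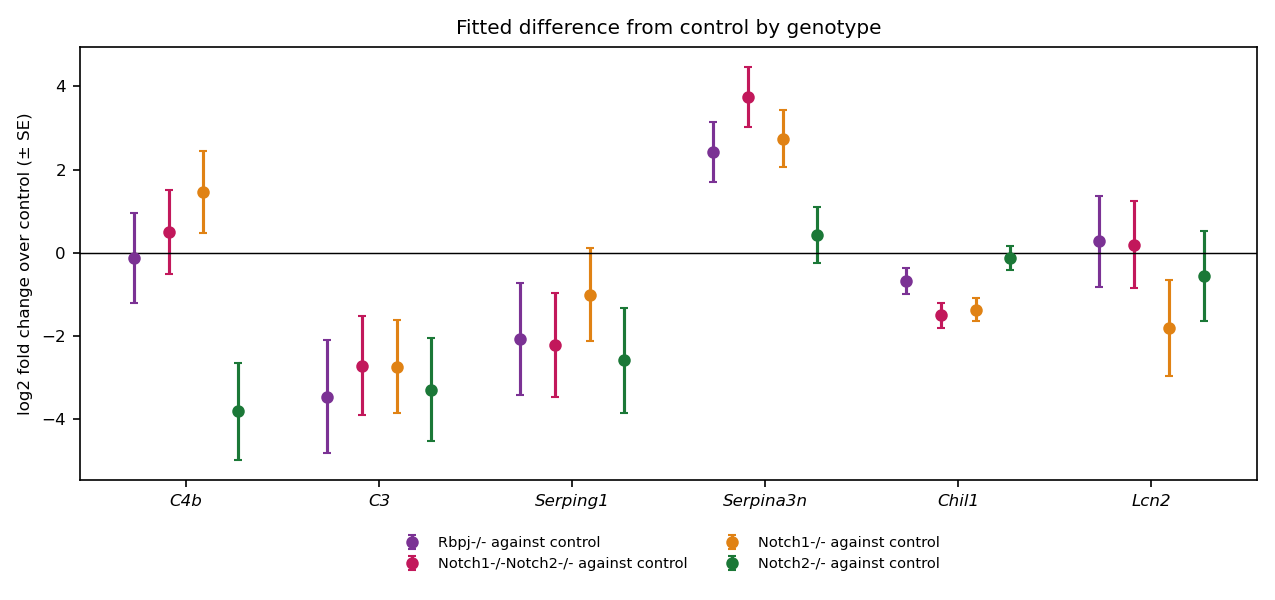
Fitted log2 fold change over control with its standard error for each gene and genotype, from 1 edgeR fit of 26 libraries. Serpina3n is above 0 by more than 2 in Rbpj-/-, Notch1-/-Notch2-/- and Notch1-/-, C3 is below -2 in all 4 genotypes, and C4b is well below 0 in Notch2-/- alone.

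Chil1 (Entrez 12654, chr1:134182156-134190031), which in the brain is known from astrocytes, varied least among the members. Rbpj-/- libraries had 5.06, 6.21, 5.30 and 3.41 CPM. Notch1-/-Notch2-/- libraries had 3.23, 1.80, 5.30, 1.47 and 2.18 CPM. The Notch1-/- libraries had a lowest value of 2.23, a median of 2.82 and a highest value of 4.55 CPM. Notch2-/- libraries had 6.99, 4.00, 11.7, 7.15 and 6.46 CPM, against a lowest of 6.03, a median of 8.12 and a highest of 9.65 CPM in control libraries.

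All 5 Notch1-/-Notch2-/- and all 6 Notch1-/- libraries lay below every control library, while 3 of 4 Rbpj-/- libraries and 1 of 5 Notch2-/- libraries did. The log2 fold change over control was -1.51 ± 0.30 in Notch1-/-Notch2-/-, -1.37 ± 0.28 in Notch1-/-, -0.67 ± 0.31 in Rbpj-/- and -0.13 ± 0.28 in Notch2-/-. The highest Notch2-/- value, in replicate 3, is from a library with both Xist and Ddx3y. Without such libraries the Notch2-/- mean was 5.82 ± 1.59 CPM, against 8.02 ± 1.40 CPM in control libraries (SD, n = 3 and 5).

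Lcn2 (Entrez 16819, chr2:32384637-32387739) was close to absent. Counts ranged between 0 and 28 reads, 7 of 26 libraries had none and 14 had at most 3. A count of 0 allows up to 3 counts, which corresponds to between 0.0621 and 0.0986 CPM depending on the library. Rbpj-/- replicate 4 and Notch1-/-Notch2-/- replicate 5 had the highest levels, 0.650 and 0.692 CPM, against at most 0.451 CPM in control libraries. Differences from control were not detectable at this depth (edgeR, adjusted p between 0.238 and 0.899, and 0.534 over the 5 genotypes). Of 9 neutrophil markers only Csf3r passed the filter on low counts, with a mean of 3.79 CPM. It fell in Rbpj-/-, Notch1-/-Notch2-/- and Notch1-/- libraries against control (edgeR, adjusted p = 0.00773, 9.99e-05 and 5.23e-04). The other neutrophil markers averaged at most 0.0448 CPM, with Camp at 0 in every library.

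The Serpina3 cluster on chromosome 12 holds several close copies of Serpina3n, of which 7 others passed the filter. Serpina3m, Serpina3k and Serpina3c rose in Notch1-/-Notch2-/- and in Notch1-/- libraries, and no copy passed as lower in a comparison with control in edgeR. Serpina3m followed the picked gene Serpina3n (Pearson r of log2 CPM 0.80 over 26 libraries), so its p-values are not independent of that choice. Serpina3k and Serpina3c rose in the same genotypes as Serpina3m, so the same limit holds for their p-values. In Notch2-/- libraries, however, DESeq2 called 2 of the 7 lower, and 4 were lower in edgeR at an unadjusted threshold of 0.05, among them Serpina3f (log2 fold change -5.05 ± 1.60, edgeR, adjusted p = 0.191) and Serpina3g (-3.35 ± 0.99, adjusted p = 0.164). Shares over all genes with DESeq2 or at the unadjusted threshold are not given. Serpina3m had 12.2, 16.9, 8.35, 10.0 and 7.20 CPM in Notch1-/-Notch2-/- libraries, against 0 to 4 reads per library in control libraries (edgeR, adjusted p = 3.3e-04). In Rbpj-/- libraries it stayed at 0.0257 to 0.164 CPM, although Serpina3n reached 452 CPM there. Serpina3m counts were 1.71% to 2.58% of Serpina3n counts in Notch1-/-Notch2-/- libraries and 0.0363% to 0.219% in Rbpj-/- libraries, and these ranges did not overlap.

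Serpina3m split the 6 Notch1-/- libraries: replicates 1, 5 and 6 had 8.59, 4.04 and 5.56 CPM and replicates 2, 3 and 4 had at most 0.0547 CPM, while Notch2-/- replicate 4 had 2.08 CPM and the other 4 Notch2-/- libraries at most 0.0253 CPM. Notch1-/- replicates 2, 3 and 4 also had at most 3 reads of Serpina3k and none of Serpina3c. Serpina3c had only 12, 5 and 4 reads in Notch1-/- replicates 1, 5 and 6. Its Notch1-/- mean was 1.21-fold the mean level that 3 counts would give in a control library. Serpina3k had no read in any control or Rbpj-/- library and averaged 1.99 ± 0.84 CPM in Notch1-/-Notch2-/- libraries (SD, n = 5, edgeR against control, adjusted p = 5.6e-04), at least 28.2-fold higher than the mean level that 3 counts would give in a control library. It fell in Rbpj-/- relative to Notch1-/-Notch2-/- libraries (edgeR, adjusted p = 0.0436), in a contrast with 0.435% of genes called higher and 0.359% lower. The Serpina3f pattern was unlike that of Serpina3n and close to that of C4b (Pearson r of log2 CPM 0.89, Spearman rho 0.89, over 26 libraries).

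**Figure D3:**
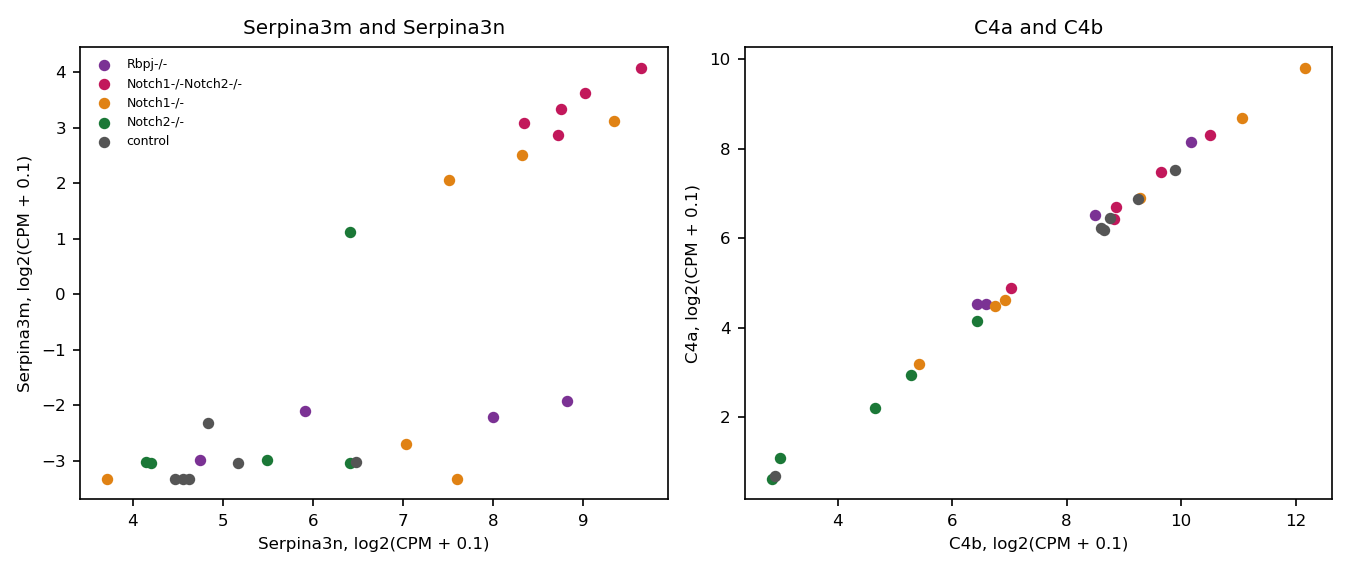
Serpina3m against Serpina3n (left) and C4a against C4b (right), in log2(CPM + 0.1), 1 point per library. C4a follows C4b in every genotype, whereas Serpina3m is above 7 CPM in all 5 Notch1-/-Notch2-/- libraries and below 0.2 CPM in all 4 Rbpj-/- libraries, of which 1 has a Serpina3n level inside the range of the Notch1-/-Notch2-/- libraries.

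The levels of the members were set beside those of interferon gamma response genes. Mean log2 CPM of 17 interferon gamma response genes (among them Irf1, Gbp2, Psmb8 and B2m, none a member) was between 1.85 and 5.24 in 15 libraries and between 6.71 and 9.47 in the other 11. The 11 comprised 1 Rbpj-/-, 2 Notch1-/-Notch2-/-, 3 Notch1-/- and 0 Notch2-/- libraries and 5 of 6 control libraries. Because the libraries form these clusters, relations were computed within each.

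Among the tested members, C3 followed the interferon mean in the 15 libraries below the gap (Pearson r = 0.71, adjusted permutation p = 0.0173; Spearman rho = 0.74, adjusted 0.0292), with r = 0.80 without the 2 farthest, but the relation did not pass in the 11 above it (r = 0.22, rho = 0.33, adjusted permutation p = 0.771 and 0.656). Serping1 gave r = 0.69 among the 11 and 0.59 among the 15 (adjusted permutation p = 0.0576 for each; rho = 0.61 and 0.68, adjusted 0.123 and 0.0384). Without the 2 farthest libraries r was 0.37 among the 11, where the value thus rests on those libraries, and 0.60 among the 15. Lcn2 gave r = 0.05 among the 11 and 0.37 among the 15 (adjusted permutation p = 0.949 and 0.434; rho = 0.05 and 0.53, adjusted 0.905 and 0.123). The picked genes are given without a test, since these libraries span several genotypes. For C4b r was 0.81 among the 11 (rho = 0.66, and r = 0.75 without the 2 farthest) and 0.23 among the 15 (rho = 0.11). For Serpina3n r was -0.12 among the 11 and -0.19 among the 15, and for Chil1 it was -0.07 and -0.02. The p-values were adjusted over the 12 relations of 6 genes on either side of the gap. The permutations shuffled all libraries of a side without regard to genotype. Differences between genotypes therefore enter the r and p-values of C3, Serping1 and Lcn2 as well.

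**Figure D4:**
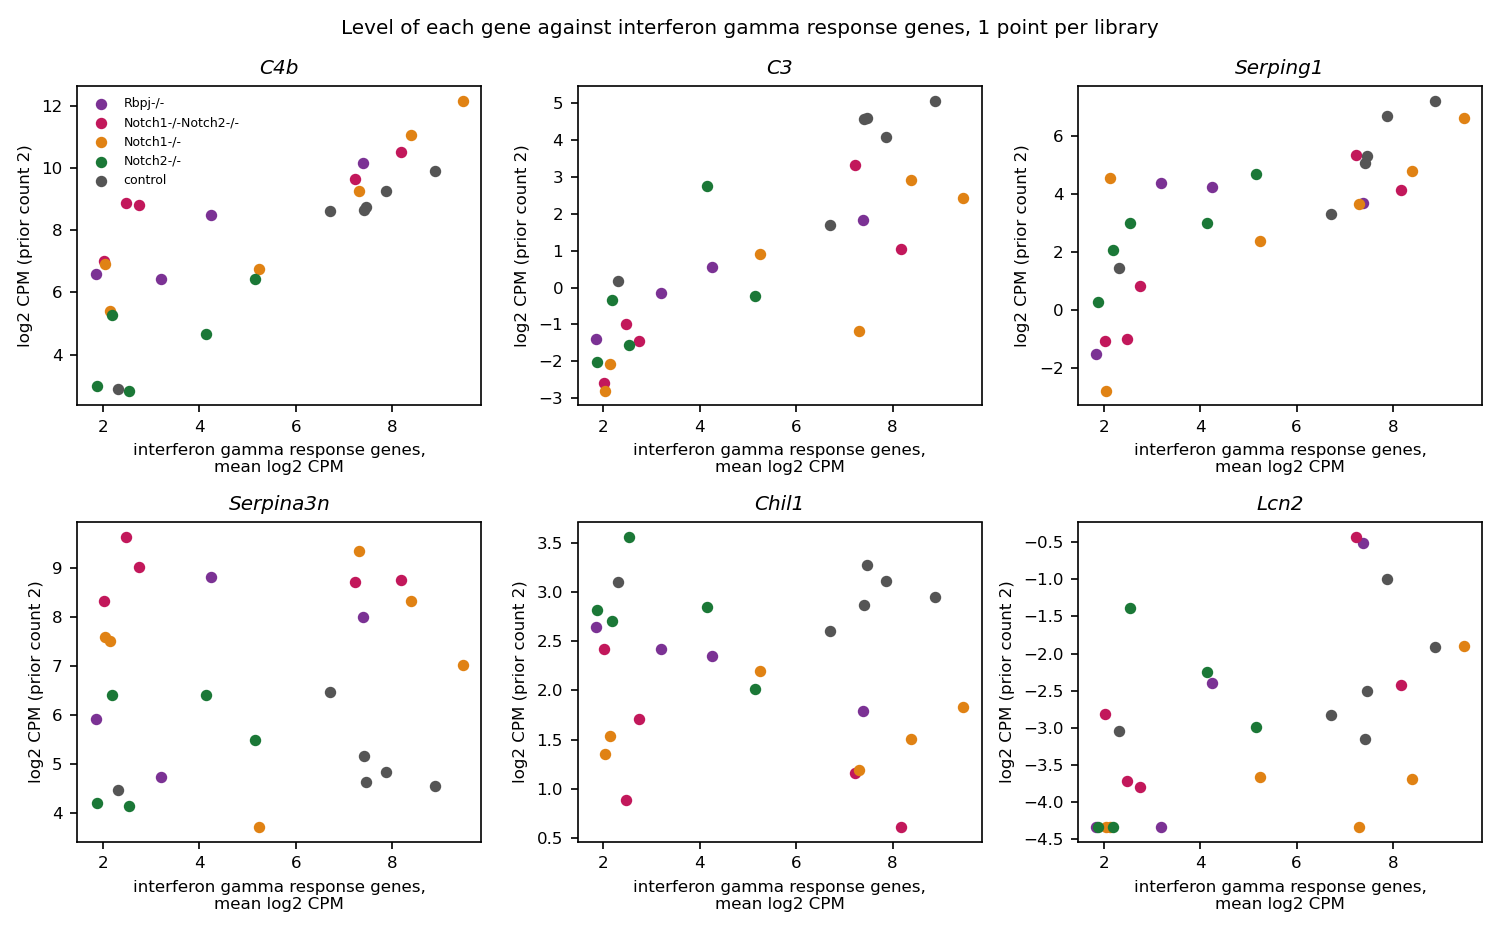
Level of each gene in log2 CPM against the mean log2 CPM of 17 interferon gamma response genes, 1 point per library, coloured by genotype. The 11 libraries right of the gap, with 5 of 6 control and none of the Notch2-/- libraries, span 389 to 4609 CPM of C4b, 0.396 to 33.3 of C3 and 9.80 to 149 of Serping1, and the 15 left of it 7.10 to 464, 0.0949 to 6.67 and 0.0949 to 25.3, so the sides overlap for each of these genes.

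Serpina3n and Chil1 ran against each other also inside genotypes. Across the 26 libraries, after subtraction of each genotype's mean, Pearson r was -0.53 (permutation within genotype, p = 0.00142, adjusted 0.00447 over 15 pairs of members) and Spearman rho was -0.66 (adjusted 0.00145). Without the 2 farthest libraries r was -0.49. Both genes, like C4b below, were chosen for their differences between genotypes, which the subtraction removes. It does not remove the spread within genotypes, on which that choice may also rest. The p-values of relations with these genes, here and elsewhere, are thus not independent of the choice. Other pairs also passed within genotypes, with adjusted permutation p in parentheses. C3 with Serping1 gave r = 0.74 (0.00105), C4b with C3 0.73 (0.00112) and C4b with Serping1 0.62 (0.00447). Lcn2 gave 0.60 with C3 (0.00447), 0.58 with Serping1 (0.0108) and 0.45 with C4b (0.0324). These values of Lcn2 rest on few reads, with none in 7 of 26 libraries and at most 3 in 14. C4b with Chil1 gave -0.42 (0.0324, rho adjusted 0.0557). Serpina3n passed with no other member. Most genotypes hold libraries of both interferon clusters, which these values mix.

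The genes whose log2 CPM across the 26 libraries was most like each member, among 11954 genes with a mean of at least 1, are given as a description. For Serpina3n these included Col11a1 (r = 0.87) and Syt4 (0.86). For C4b they were Mov10 (0.93), Parp3 (0.91) and Serpina3f (0.89), and for C3 the chemokine genes Cxcl9 (0.93) and Cxcl16 (0.88) and the MHC class II invariant chain gene Cd74 (0.87). Serping1 was most like Clec2d (0.93), the complement protease gene C1ra (0.88) and Lgals3bp (0.88). Chil1 was most like Mmd2 (0.95), Faim2 (0.94) and Vsnl1 (0.94), and Lcn2 reached at most 0.71, with Tgm2.

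Of 137 other genes in 12 lists of complement, acute phase, cytokine, interferon and reactive astrocyte genes, 106 were tested. In Rbpj-/- libraries 3 rose and 14 fell, in Notch1-/-Notch2-/- 9 rose and 23 fell, in Notch1-/- 8 rose and 20 fell and in Notch2-/- none passed in edgeR, where 3 were higher and 41 lower at an unadjusted threshold of 0.05, and where DESeq2 called 0 higher and 19 lower. Without Rbpj-/- replicate 1 none rose and 9 fell in Rbpj-/-, and 7 fell without Rbpj-/- replicate 2. The median log2 fold change of the 106 genes was -0.73, -0.62, -0.34 and -0.52 in this order, beside 0.07, 0.01, 0.03 and 0.01 over all genes tested. Over all genes, 7.97% were called higher and 7.25% lower in Rbpj-/-, 18.3% and 18.8% in Notch1-/-Notch2-/-, and 13.2% and 13.5% in Notch1-/-. In Notch2-/- these shares were 0.128% and 0.166%. All these shares are of adjusted edgeR calls. Shares over all genes at the unadjusted threshold or with DESeq2 are not given, so the Notch2-/- counts of those kinds cannot be set against them. In Notch1-/-Notch2-/- the share of listed genes called lower was near that of all genes. Listed genes called higher were a smaller share than among all genes.

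In the initiation list C1qa, C1qb and C1qc, the subunits of the C1q recognition molecule, fell in Rbpj-/-, Notch1-/-Notch2-/- and Notch1-/- libraries. C1qb averaged 9.98 ± 5.32 CPM in Rbpj-/-, 7.05 ± 3.13 in Notch1-/-Notch2-/- and 7.81 ± 6.63 in Notch1-/- libraries, against 83.1 ± 35.6 CPM in control libraries (SD, n = 4, 5, 6 and 6, edgeR, adjusted p between 1.2e-04 and 0.00455). Among receptors, the C3a receptor gene C3ar1 and the complement receptor 3 subunit genes Itgam and Itgb2 fell in the same 3 genotypes, C3ar1 with log2 fold changes of -2.30, -2.30 and -3.49 in Rbpj-/-, Notch1-/-Notch2-/- and Notch1-/-. Of 11 tested complement regulators 3 fell in Rbpj-/-, 5 fell in Notch1-/-Notch2-/- and 4 fell and 1 rose in Notch1-/-. Cr1l, Clu and Vtn fell in all 3, Cd59a and Susd4 also in Notch1-/-Notch2-/- and Cd55 in Notch1-/-, where Cd46 rose. Clu, which encodes clusterin, an inhibitor of the membrane attack complex, averaged 103 ± 34.8, 75.0 ± 20.5 and 94.9 ± 18.8 CPM in these genotypes, against 231 ± 38.5 CPM in control libraries (edgeR, adjusted p between 2.6e-05 and 0.00488), and Vtn, the vitronectin gene, which is also on the list of mural cell markers, had log2 fold changes of -3.08, -4.15 and -3.51. Cd59a, which encodes a membrane-bound inhibitor of the same complex, fell in Notch1-/-Notch2-/- (log2 fold change -2.75 ± 0.53, adjusted p = 4.99e-04), whereas its log2 fold changes of -1.44 in Rbpj-/- and -1.12 in Notch1-/- did not pass (adjusted p = 0.0716 and 0.0751).

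Some genes went the other way. Masp2, on the initiation list, rose by 4.31 ± 1.04 in Notch1-/- on the log2 scale (edgeR, adjusted p = 0.00508). Its log2 fold changes of 2.77 in Rbpj-/-, 2.44 in Notch1-/-Notch2-/- and 2.95 in Notch2-/- did not pass (edgeR, adjusted p = 0.0700, 0.0568 and 0.221). Cfp, which encodes the alternative pathway stabiliser properdin, rose by 0.80 ± 0.27 in Notch1-/-Notch2-/- and 0.74 ± 0.26 in Notch1-/- on the log2 scale (edgeR, adjusted p = 0.0225 and 0.0384). Socs3, a feedback inhibitor and target of Stat3, averaged 29.8 ± 24.8 CPM in Rbpj-/- and 27.7 ± 11.0 in Notch1-/-Notch2-/- libraries, against 11.0 ± 2.38 CPM in control libraries (adjusted p = 0.0230 and 0.0108). Nfkbiz, an NF-kB cofactor, rose by 1.37 ± 0.29 in Notch1-/-Notch2-/- and 0.83 ± 0.28 in Notch1-/- (adjusted p = 0.00119 and 0.0339). The cytokine genes Osm and Tnf and the interleukin-6 receptor gene Il6ra fell in Rbpj-/-, Notch1-/-Notch2-/- and Notch1-/-, Il6ra with log2 fold changes of -2.31, -2.36 and -2.28. Cfb, the alternative pathway protease, resembled C3: it averaged 1.89 ± 2.72 CPM in Rbpj-/-, 2.64 ± 2.78 in Notch1-/-Notch2-/-, 5.25 ± 7.18 in Notch1-/- and 0.726 ± 0.692 in Notch2-/- libraries, against 20.6 ± 15.0 CPM in control libraries, and passed the F-test over 5 genotypes (edgeR, adjusted p = 0.0252) but no comparison with control in edgeR. With DESeq2, 1 of the 2 tested genes of this list, Cfb and Cfp, was called lower in Rbpj-/-, Notch1-/-Notch2-/- and Notch2-/-.

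The acute phase protein list did not move as Serpina3n did. Of its 7 other tested genes none rose in any comparison with control in edgeR or DESeq2 (1 was higher at an unadjusted threshold of 0.05, in Notch1-/-Notch2-/-), while Itih3, which encodes a hyaluronan-binding plasma protein chain, fell in Notch1-/-Notch2-/- (log2 fold change -1.51 ± 0.47) and in Notch1-/- (-1.73 ± 0.45) (edgeR, adjusted p = 0.0154 and 0.00815), and the ferroxidase gene Cp fell in Notch1-/-Notch2-/- (-2.10 ± 0.62, adjusted p = 0.0113). Of 21 other reactive astrocyte genes 2 rose and 1 fell in Rbpj-/-, 3 rose and 5 fell in Notch1-/-Notch2-/- and 1 fell in Notch1-/-. These shares were near or below those over all genes tested. The hyaluronan receptor gene Cd44 rose by 3.32 ± 0.91 in Rbpj-/- and 3.45 ± 0.89 in Notch1-/-Notch2-/- (adjusted p = 0.0186 and 0.00433), and the protease inhibitor gene Timp1 by 2.98 ± 0.95 and 2.62 ± 0.92 (adjusted p = 0.0375 and 0.0278). None of 4 terminal component genes passed in edgeR in any comparison with control, and DESeq2 called 1 lower in Notch1-/-. Of 17 interferon gamma response genes none passed in edgeR in any comparison with control, whereas 2 were lower in Rbpj-/-, 1 in Notch1-/-Notch2-/- and 16 in Notch2-/- at an unadjusted threshold of 0.05, and DESeq2 called 1, 1 and 7 of them lower. For the unadjusted and DESeq2 counts of these lists, shares over all genes are not given.

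**Figure D5:**
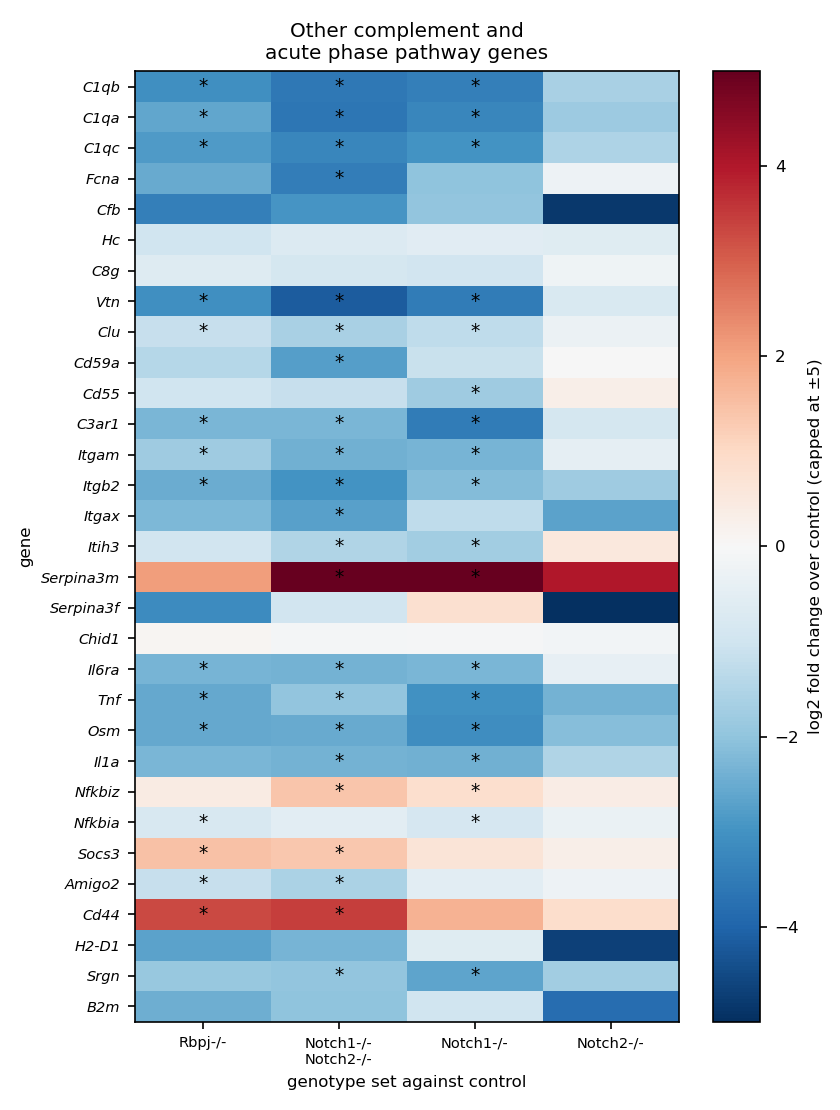
Log2 fold change over control (colour, capped at 5 in either direction) of pathway genes chosen by the naming rule, with an asterisk where the adjusted edgeR p is under 0.05; Serpina3k and Serpina3c are left out because control libraries are at 0. The 3 C1q genes, C3ar1, Itgam, Itgb2, Il6ra, Tnf and Osm are blue with asterisks in the first 3 genotypes, Itgax in 1 and Il1a in 2 of them, Serpina3m and Cd44 are red, and no Notch2-/- value carries an asterisk.

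Markers of other cells moved with these differences. The 10 microglia and macrophage markers summed to 104 to 178 CPM in Rbpj-/-, 46.1 to 131 in Notch1-/-Notch2-/-, 51.9 to 201 in Notch1-/- and 248 to 578 in Notch2-/- libraries, against 289 to 1127 CPM in control libraries. Of the 10, 8, 9, 10 and 0 fell in the 4 genotypes in this order. Of 9 astrocyte markers 3, 6, 5 and 0 fell and of 8 endothelial markers 6, 8, 7 and 0 fell. Of 6 mature oligodendrocyte markers 5, 6, 4 and 0 fell, with median sums of 2288, 2322, 3221 and 11351 CPM in the 4 genotypes, against 13725 CPM in control libraries. Of 5 tested infiltrating myeloid markers 2, 3, 2 and 0 fell, of 8 mural and fibroblast markers 2, 3, 3 and 0, and no marker of these 6 lists rose. Over all genes tested, 7.25%, 18.8%, 13.5% and 0.166% were called lower in the 4 genotypes in this order. In bulk samples fewer cells of a type and less RNA per cell cannot be told apart. The part of these markers in the members' and pathway genes' values was not tested beyond the relation within genotypes, where C3 and the microglia mean gave r = 0.53 (permutation p = 0.0180, adjusted 0.108 over 30 relations; rho = 0.46, adjusted 0.203). For Serpina3n the r within genotypes with the microglia mean was 0.02 (rho = 0.05, adjusted permutation p = 0.966 and 0.959) and with the astrocyte mean -0.25 (rho = -0.23, adjusted 0.565 and 0.531). Chil1 and the astrocyte mean gave r = 0.35 within genotypes (rho = 0.35, adjusted permutation p = 0.344 and 0.380).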

How the data were processed

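RNA was sequenced from sorted GFP-positive glioma cells, with TruSeq Stranded RNA LT libraries on a NextSeq instrument per the labels' protocols. The authors deposited whole-number read counts per gene, with Entrez identifiers and a gene length, which served only for levels per kilobase. Per the submitters' processing notes, the aligner was STAR and the build mm10. How reads were assigned to genes, and whether by strand, is not stated, which makes counts of near-identical or overlapping genes uncertain. Of 24454 identifiers 24374 matched RefSeq GRCm38.p6, and 80, with 0.348% of counts, did not. Totals ran between 30868828 and 48103535 counts per library.

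Counts were filtered with filterByExpr, scaled by TMM and fitted with edgeR 4.0.16 (R 4.3.3) over all 26 libraries with genotype as the only term. The quasi-likelihood F-test was adjusted by Benjamini-Hochberg over 15617 genes at 0.05, and standard errors were taken from the fold change and its F. The procedure was tested on simulated data. DESeq2 1.42.0 and limma 3.58.1 served as alternatives. Floors of 3 counts cover counting error only. Correlations used 100000 permutations, within genotype except on either side of the interferon gap, where all libraries of a side were shuffled. Same-numbered libraries of different genotypes did not deviate together, with 13 of 47 pairs above 0.1, and within genotypes no 2 libraries matched within sampling noise.

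The 6 genes and all lists were chosen with earlier results of these data known. Genes of each list were named by the smallest adjusted p of the F-test over 5 genotypes, up to 4 that passed, or otherwise the 2 with the highest level. C4a, Masp2, Cfp, Cp, Timp1, Cr1l, Susd4, Cd46 and Serpina3g lie outside this rule and were named after their values were seen. The relations among libraries, the motif searches and the omission of the 6 genes from the pathway counts were chosen after the files were seen. The split of libraries by the interferon gamma response mean was made at its widest gap. Its relations had first been computed over all 26 libraries, among 30 relations of a gene to a list. After subtraction of genotype means, with permutation within genotype, C3 gave r = 0.84 (adjusted p = 3e-04). Serping1 gave 0.79 (7e-04), Lcn2, with few reads, 0.64 (0.00345) and C4b 0.88 (3e-04). Serpina3n gave 0.21 (0.747) and Chil1 -0.38 (0.341). Most genotypes hold libraries on both sides of the gap. These values thus mix differences between the clusters with those inside them, and do not show a relation inside either cluster.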

Additional observations from a re-analysis of the deposited data

Results flagged for a closer look

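Of 30 groups (6 genes in 5 genotypes), 7 had a library far from the rest by Dixon's test at 95%. For normally distributed values this test marks about 1 group in 20 by chance. It was run on CPM and not on log2 CPM. Values skewed towards high CPM give more flags at the high end, so the 7 do not show an excess of unusual libraries. For Serpina3n, control replicate 4 had 89.0 CPM, against 35.8 CPM in the next highest control library. For C3, Notch1-/-Notch2-/- replicate 5 had 10.0 CPM and Notch2-/- replicate 4 had 6.67 CPM, and the next highest libraries of these genotypes had 2.02 and 0.810 CPM. Serping1 stood at 97.8 CPM in Notch1-/- replicate 2 and at 25.3 CPM in Notch2-/- replicate 2, with 27.3 and 7.95 CPM next. Lcn2 reached 0.692 CPM in Notch1-/-Notch2-/- replicate 5 and 0.219 CPM in Notch1-/- replicate 2, levels of few reads. All 7 were the highest library of their group. Notch1-/- replicate 2 also had the highest C4b level and the highest interferon gamma response mean of all 26 libraries, and Notch2-/- replicate 4 held both Xist and Ddx3y.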

How the results depend on the processing

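Across the alternatives run, the log2 fold changes of Serpina3n, C4b and Chil1 moved by less than 1 SD between replicates, also with 1 library left out, when Chil1 in Notch2-/- ran from -0.37 to 0.01. C3 against control kept its sign in all. Its adjusted p passed with DESeq2 in Rbpj-/- (-3.50), Notch1-/-Notch2-/- (-2.71) and Notch1-/- (-2.76), with limma voom in Notch1-/-Notch2-/- (-3.86), Notch1-/- (-3.63) and Notch2-/- (-3.69), with the replicate block in Notch1-/-Notch2-/- (-3.20) and Notch1-/- (-3.20), and with only the compared libraries in Rbpj-/- (-3.49); it ran between 0.0113 and 0.338 over these settings. Its F over 5 genotypes was 4.27 with the block (adjusted p = 0.0508), 3.87 without the 3 libraries with both Xist and Ddx3y, and 2.92 to 6.07 with 1 library left out; that call was lost without Rbpj-/- 1, 2 or 3, Notch1-/-Notch2-/- 2 or 4, Notch1-/- 1 or 4, Notch2-/- 1, 2, 3 or 5, or control 2, 3, 5 or 6 (adjusted p 0.0505 to 0.119). With 1 left out, C3 was -3.45 to -2.44 in Notch1-/- and -4.55 to -2.41 in Notch1-/-Notch2-/- against control, -0.16 (without Notch1-/- 6) to 2.31 in Notch1-/- over Notch2-/- and -1.55 to 1.09 (without Notch1-/-Notch2-/- 5) in Rbpj-/- over Notch1-/-Notch2-/-. The last turned to 0.95 with voom and 0.58 with the block. Lcn2 turned to -0.057 (Rbpj-/-) and -0.31 (Notch1-/-Notch2-/-) against control with voom and to 0.88 in Notch1-/- over Notch2-/- without the Xist and Ddx3y libraries; with 1 library left out it ran from -1.67 (without Rbpj-/- 4) to 0.67 in Rbpj-/- over control and from -1.87 to 0.48 in Rbpj-/- over Notch1-/-Notch2-/-, where its sign turned without Rbpj-/- 4 or Notch1-/-Notch2-/- 1, 2, 3 or 4, and where Serping1 ran from -0.18 to 1.40 and turned without Rbpj-/- 1 or 3 or Notch1-/-Notch2-/- 1, 2 or 3. None of these turned values passed. The mean log2 CPM of Lcn2 in Notch1-/- was -5.05 with a prior count of 0.5.

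Pathway genes called lower numbered 9 in Rbpj-/-, 15 in Notch1-/-Notch2-/- and 10 in Notch1-/-, and called higher 5 in Notch1-/-Notch2-/- and 1 in Notch1-/-, with a 10 CPM filter. DESeq2 called 24 lower in Rbpj-/- and 19 in Notch2-/-; voom called 36 lower in Notch1-/-Notch2-/-, 36 in Notch1-/-, 12 in Notch2-/- and 0 higher in Rbpj-/-. The block called 0 higher in Rbpj-/-; only the compared libraries, 3 higher in Notch1-/- and 10 lower in Notch2-/-; without the Xist and Ddx3y libraries, 5 higher in Notch1-/-. With 1 library left out, higher calls were 0 to 4 in Rbpj-/- (0 without replicate 1) and 4 to 9 in Notch1-/- (4 without Notch1-/- 1 or control 1, 3 or 6), and lower calls 7 to 18 in Rbpj-/- (7 without replicate 2) and 0 to 1 in Notch2-/- (1 without Notch1-/- 2 or control 1). Shares over all genes under these settings are not given. The cause of the shifts in these counts was not tested. Replicate numbers are no pairing here: 4 of 26 libraries were most like one of their own number.

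No value was obtained for Lcn2 and Chil1 with the 10 CPM filter, for Lcn2 with only the compared libraries, or for Lcn2 without Notch1-/-Notch2-/- replicate 5, Notch2-/- replicate 3 or control replicate 3. The settings for the F-test and for comparisons between mutants were chosen after seeing the data. Depth limits Lcn2, with at most 28 reads.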
